A study of Mus musculus with 16 samples.

Results

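DNA is damaged in every dividing cell, and the genes described here encode proteins that sense or mend that damage. Homologous recombination copies an intact sister sequence into a broken one, and the Fanconi proteins work with it where the strands are crosslinked. Mismatch repair corrects copying errors, base excision repair removes single damaged bases and seals nicks, nucleotide excision repair cuts out bulky lesions, end joining ligates broken ends, and the damage checkpoint kinases halt the cell cycle while repair proceeds. The list held 37 genes, and 34 of them were measured here, out of 12393 genes with a probe set on the array. A gene was taken at the probe set that carries its symbol and no other, the brightest by mean log2 intensity over the 16 tumors where it had several. Xrcc2, Fancd2 and Lig4 had no such probe set and were not analysed here.

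The tumors came from mice of a single genotype, p53R172H∆g/+ K-rasLA1/+, which carry 1 mutant copy of the tumor suppressor p53 and 1 latent oncogenic K-ras allele and develop lung adenocarcinomas that spread. No mouse without the mutant p53 allele was profiled, so this allele is shared by all groups. The paper reports that many tumors of such mice had also lost their normal p53 copy. The labels do not give this loss for the tumors profiled here, so they may differ in it. Its part in the results on repair genes was not tested. The 9 metastases came from 4 male mice: a liver, a body wall and an inguinal tumor in mouse 1, a liver tumor in mouse 2, a heart, a mediastinal lymph node and a subcutaneous tumor in mouse 3, and a mediastinal lymph node and a parietal pleural tumor in mouse 4. The 7 primary lung adenocarcinomas came 1 each from mice 1 to 4 and from mice 5, 6 and 7, of which mouse 6 was female, and no metastasis of mice 5 to 7 was profiled. Ages are not given in the sources used here. Each tumor was profiled once on an Affymetrix Mouse 430A 2.0 array, and values are intensities in arbitrary units on a linear scale. The main comparison set the 9 metastases against the 4 matched primary tumors on the log2 scale, with each mouse as its own block (limma), and a log2 difference is metastases minus primary tumors. The animals number 4, since up to 3 metastases stem from 1 mouse and share its primary tumor, although the fit counts 9 metastases. The number of arrays limits the precision.

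All arrays had similar medians, the highest being 85.5, and correlations between 0.900 and 0.969 over 120 pairs. Tumors were dissected but not sorted, and fewer cells of a type and less RNA per cell cannot be told apart in such samples. Markers of the tumor epithelium (6 of 6 measured) summed to between 3720 and 11969 in the metastases, against 5041 to 13814 in the 7 primary tumors, and all 6 had log2 differences below 0, 2 of them at an unadjusted p under 0.05. Epcam, an adhesion protein of epithelial cells, averaged 257 ± 134 in the metastases and 1065 ± 117 in the matched primary tumors (SD, n = 9 and 4), lower in 9 of 9, and the keratin Krt19 had a log2 difference of −0.92. The keratins Krt8 and Krt18 had log2 differences of −0.39 and −0.17. Cdh1 ran from 82.1 to 746 in the metastases and from 406 to 890 in the 7 primary tumors, lower than the own primary tumor in 7 of 9. The lung lineage factor Nkx2-1 ran from 1.07 to 56.5 in the metastases and from 14.0 to 58.3 in the 7 primary tumors, lower in 5 of 9. Summed proliferation markers (14 of 15 measured) ran from 1505 to 6358 in the metastases, against 1264 to 1964 in the 7 primary tumors. All 14 had log2 differences above 0, 11 of them at an unadjusted p under 0.05. Alveolar type 2 cell markers (7 of 8 measured) summed to between 1132 and 28023 in the metastases and between 17109 and 46416 in the primary tumors, and club cell markers (4 of 4) to between 307 and 689 in the metastases and between 1448 and 5739 in the primary tumors. The part of cell composition and proliferation in the results on repair genes was not tested.

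Differences between the metastases and the primary tumors were small for most repair genes, but not smaller than for genes at large. The median absolute log2 difference was 0.169 over the 34 repair genes and 0.165 over all genes. In the paired limma fit an adjusted p under 0.05 was reached by none of the 34, against 46 of 12393 genes (0.371%). With the methods' t-test, in which several metastases of a mouse enter as if independent, 2 of the 34 passed it, Chek1 and Xpc, beside 3.96% of all genes. At an unadjusted p under 0.05, 5 of 34 repair genes (14.7%) were called, beside 11.5% of all genes. Of these, 4 (Chek1, Parp2, Apex1 and Xrcc4) were higher in the metastases, beside 4.37% of all genes, and 1 (Xpc) was lower, beside 7.11%. The other 29 were not called. The split of all 2576 probe sets at this level depends on the scaling, with 37.6% of them higher in the metastases as deposited, 49.9% after quantile normalization and 48.0% after centring each array on its median, while the 5 repair genes and their directions were the same under each. In all, 25 had a log2 difference above 0 and 9 below 0, and 47.9% of all genes were above 0. The median difference was 0.12 over the 34, against −0.01 over all genes, and the values ran from −0.75 (Xpc) to 0.65 (Chek1). No repair gene separated the 9 metastases from the 4 matched primary tumors without overlap, as 1.19% of all genes did.

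**Figure D1:**
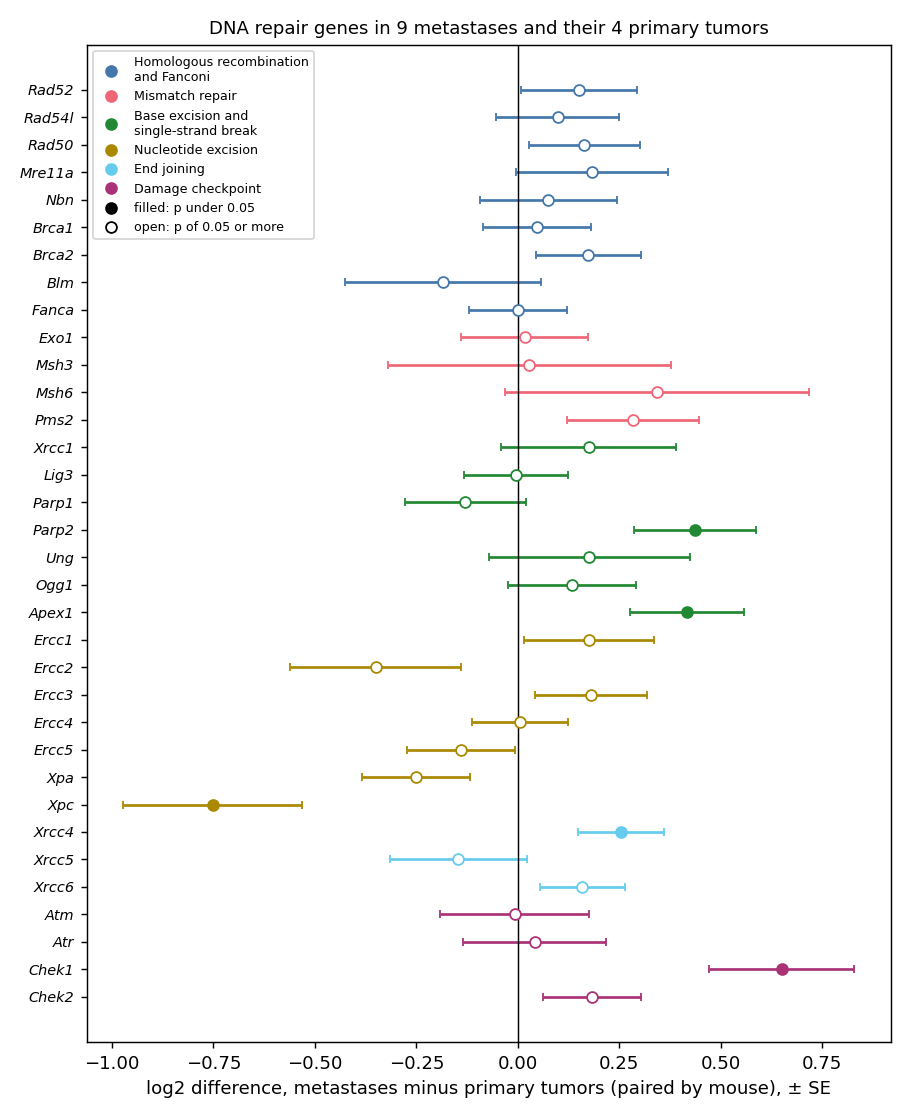
Log2 difference between 9 metastases and 4 matched primary tumors for each of the 34 repair genes, with the SE of the paired fit as bars and colors for pathways. Filled points (Chek1, Parp2, Apex1, Xrcc4 and Xpc) had an unadjusted p under 0.05, and the differences run from −0.75 to 0.65.

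Promoter sequences are shown for the 3 genes with the largest positive differences and for Msh6, whose difference varied most between mice. They come from RefSeq (build GRCm38.p6), run 5′ to 3′ on the gene's strand and span 250 bases before the annotated start to 30 bases after its first base. Capitals mark CCAAT, the letters bound by NF-Y, on either strand (ATTGG on the opposite one) and the E2F letters TTTGGCGC, TTTCCCGC, TTTCGCGC or TTTGCCGC on either strand. E2F and NF-Y are transcription factors known for their part in cell cycle gene expression.
Chek1: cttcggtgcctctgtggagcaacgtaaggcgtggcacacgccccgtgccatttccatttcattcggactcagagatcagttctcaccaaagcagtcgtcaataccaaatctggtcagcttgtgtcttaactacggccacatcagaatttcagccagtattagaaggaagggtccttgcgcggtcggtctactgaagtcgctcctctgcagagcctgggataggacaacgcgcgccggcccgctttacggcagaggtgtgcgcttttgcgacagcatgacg
Parp2: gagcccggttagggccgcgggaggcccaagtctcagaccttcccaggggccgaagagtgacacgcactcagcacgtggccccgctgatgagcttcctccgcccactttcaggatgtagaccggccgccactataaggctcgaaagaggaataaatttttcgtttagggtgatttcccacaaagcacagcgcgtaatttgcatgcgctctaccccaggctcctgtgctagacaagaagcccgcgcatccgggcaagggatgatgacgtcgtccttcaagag
Apex1: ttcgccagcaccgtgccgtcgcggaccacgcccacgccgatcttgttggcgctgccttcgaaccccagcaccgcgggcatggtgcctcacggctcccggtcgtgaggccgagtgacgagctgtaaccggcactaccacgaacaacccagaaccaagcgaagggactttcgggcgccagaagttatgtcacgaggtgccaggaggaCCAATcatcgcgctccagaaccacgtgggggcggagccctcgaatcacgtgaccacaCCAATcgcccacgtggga
Msh6: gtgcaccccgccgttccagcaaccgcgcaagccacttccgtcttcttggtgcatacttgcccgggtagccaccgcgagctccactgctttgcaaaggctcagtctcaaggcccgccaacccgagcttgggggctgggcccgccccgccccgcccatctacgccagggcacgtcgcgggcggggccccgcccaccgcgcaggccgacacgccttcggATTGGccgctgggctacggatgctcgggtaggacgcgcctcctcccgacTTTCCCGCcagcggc

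The windows lie at chr9:36726629-36726908 for Chek1 (minus strand), chr14:50807666-50807945 for Parp2 (plus strand), chr14:50924699-50924978 for Apex1 (plus strand) and chr17:87974800-87975079 for Msh6 (plus strand). Apex1 held CCAAT 45 bases before the start and again 12 bases after it. Msh6 held CCAAT on the opposite strand 34 bases before the start and TTTCCCGC 15 bases after it. The windows of Chek1 and Parp2 held none of these letters. Over full windows of 300 bases (50 after the start), E2F letters stood in 5 of the 30 repair genes of the list found in the table (16.7%; Brca2, Chek2, Msh3, Msh6 and Xrcc6), against 2.6% of 27025 genes. CCAAT stood in 18 of 30 (60.0%) against 41.1%, and the CHR letters TTTGAA, also searched on both strands, in 1 of 30 (3.33%; Ercc5) against 20.2%. Such matches describe the letters only. Nbn, Fancd2, Exo1, Ercc3, Rad50, Xpc and Xrcc2 are not in the table used.

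The damage checkpoint gene Chek1 gave the largest positive difference of the list. Chek1, the kinase that ATR activates at stalled replication forks, averaged 61.3 ± 17.5 in the metastases and 38.8 ± 6.47 in the matched primary tumors (SD, n = 9 and 4). Its intensity was 81.2, 71.6 and 79.0 in the body wall, inguinal and liver metastases of mouse 1 and 77.7 in the liver metastasis of mouse 2, against 43.6 and 39.2 in the primary tumors of these mice. In mouse 3 it was 46.4 (heart), 59.1 (lymph node) and 34.9 (subcutaneous), against 29.5 in the primary tumor, and in mouse 4 it was 40.2 (lymph node) and 61.6 (pleura), against 42.7. Metastases were thus higher than their own primary tumor in 8 of 9 cases, the lymph node metastasis of mouse 4 being the exception. The log2 difference was 0.65 (SE 0.18, adjusted p = 0.186 from limma). The primary tumors of mice 5, 6 and 7 had 15.2, 49.8 and 41.3, which lie within or below the range of the metastases.

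Atm, the kinase activated by double-strand breaks, Atr, its counterpart at single-stranded DNA, and Chek2, the kinase downstream of Atm, were not called. Their log2 differences were −0.01, 0.04 and 0.18, with SEs of 0.18, 0.18 and 0.12. Chek2 was higher than in the own primary tumor in 8 of 9 metastases, with values from 159 to 217 in the metastases and from 144 to 192 in the matched primary tumors, ranges that overlap over most of their length. The median over the 4 checkpoint genes was 0.11. The log2 ratio of Chek1 to the own primary tumor lay between 0.72 and 0.98 in mice 1 and 2, where the median ratio of the proliferation markers lay between 1.51 and 2.41. In mouse 3 it was 0.66 (heart), 1.00 (lymph node) and 0.24 (subcutaneous), with proliferation medians of 0.76, 0.66 and 0.32, and in mouse 4 it was −0.09 (lymph node) and 0.53 (pleura), with proliferation medians of 0.54 and 0.23.

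**Figure D2:**
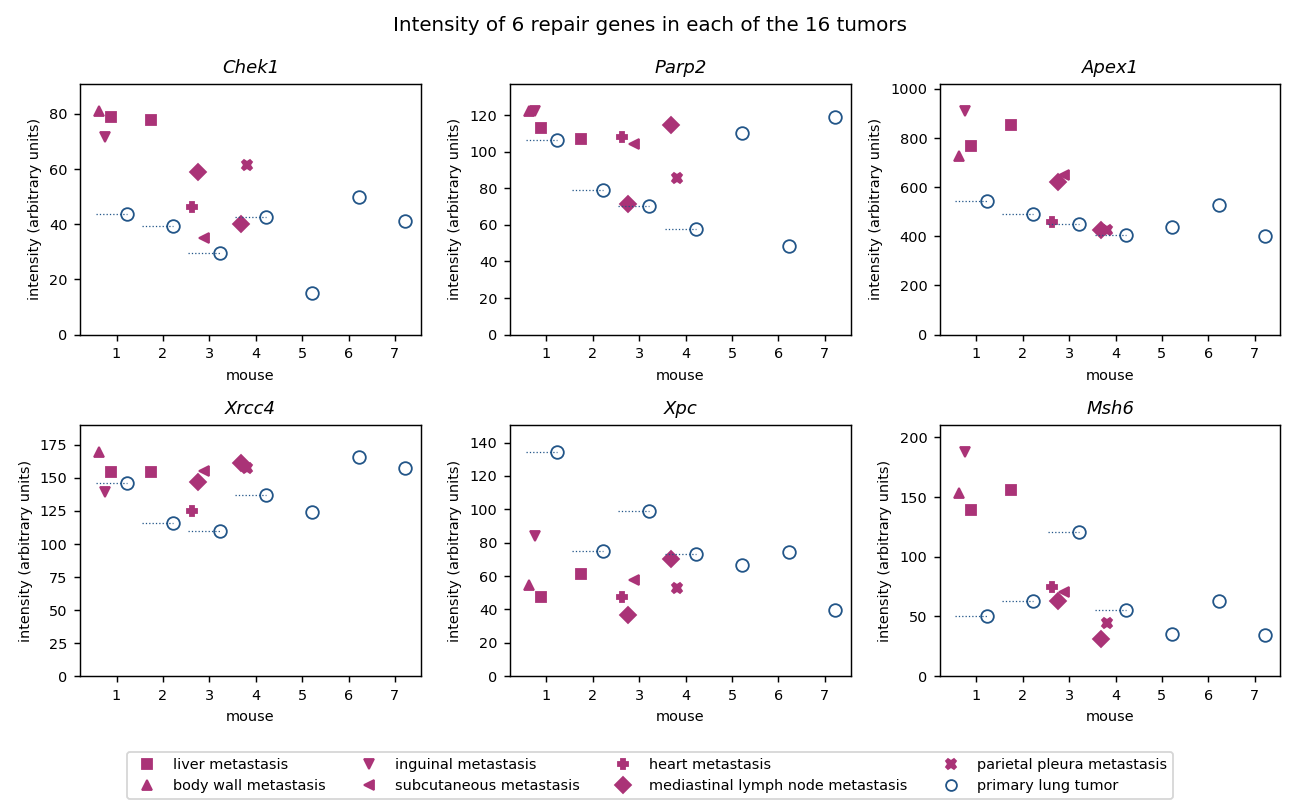
Intensity (arbitrary units, linear axis from 0) of 6 repair genes in each of 16 tumors, with metastases as filled symbols by site, left of the primary tumor of the same mouse (open circle and dotted line). Parp2 and Apex1 lay above the own primary tumor and Xpc below it in 9 of 9 metastases, and Msh6 lay above it in mice 1 and 2 and below it in mice 3 and 4.

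Base excision repair held 2 of the called genes. Parp2, which binds DNA strand breaks and synthesizes poly(ADP-ribose) there, averaged 105 ± 16.8 in the metastases and 78.4 ± 20.8 in the matched primary tumors (SD, n = 9 and 4). It was 122 (body wall), 122 (inguinal) and 113 (liver) in metastases of mouse 1, against 107 in its primary tumor, and 107 in the liver metastasis of mouse 2, against 78.9. Mouse 3 had 108 (heart), 71.5 (lymph node) and 104 (subcutaneous), against 70.5 in the primary tumor, and mouse 4 had 115 (lymph node) and 85.8 (pleura), against 57.5. All 9 metastases exceeded their own primary tumor, as 2.04% of all genes did, though the lymph node metastasis of mouse 3 did so by a log2 ratio of 0.02 only. The log2 difference was 0.44 (SE 0.15, adjusted p = 0.297 from limma). The primary tumors of mice 5 and 7, at 110 and 119, were as bright as most metastases, and that of mouse 6 had 48.5.

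Apex1 encodes the endonuclease that cuts DNA at sites where a base is missing. It averaged 650 ± 182 in the metastases and 474 ± 59.3 in the matched primary tumors (SD, n = 9 and 4). The metastases of mouse 1 had 728 (body wall), 912 (inguinal) and 769 (liver), against 545 in the primary tumor, and the liver metastasis of mouse 2 had 853, against 492. In mouse 3 the values were 460 (heart), 620 (lymph node) and 651 (subcutaneous), against 450, and in mouse 4 they were 427 in both metastases, against 407. Every metastasis was above its own primary tumor, but the differences in mouse 4 and in the heart metastasis were small (log2 ratios of 0.07, 0.07 and 0.03). The log2 difference was 0.42 (SE 0.14, adjusted p = 0.280 from limma). The 3 Apex1 probe sets gave 0.42, 0.55 and 0.39, each at an unadjusted p under 0.05. The names of the probe sets that gave 0.42 and 0.55 carry an x, Affymetrix's mark for probes that can match other sequences, and the name of the third does not.

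The other excision genes of this pathway did not reach this level. Xrcc1, a scaffold of single-strand break repair, Ung, which removes uracil from DNA, and Ogg1, which removes oxidized guanine, had log2 differences of 0.17, 0.18 and 0.13 with SEs between 0.16 and 0.25. Lig3, the ligase that partners Xrcc1, and Parp1, the main nuclear poly(ADP-ribose) polymerase, had −0.00 and −0.13. Ung spread most widely, with log2 ratios to the own primary tumor between 0.39 and 1.04 in mouse 1 and of −0.33 (lymph node) and −1.16 (pleura) in mouse 4. The pathway median was 0.17.

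The 7 nucleotide excision genes had a median of −0.14 (3 above 0 and 4 below), and they included the gene that was lower in the metastases. Xpc, which recognizes helix distortion and starts repair across the genome, averaged 57.0 ± 13.9 in the metastases and 95.3 ± 28.5 in the matched primary tumors (SD, n = 9 and 4). Metastases of mouse 1 had 54.6 (body wall), 84.0 (inguinal) and 47.3 (liver), against 134 in the primary tumor, and the liver metastasis of mouse 2 had 61.4, against 74.97. Those of mouse 3 had 47.4 (heart), 36.8 (lymph node) and 57.7 (subcutaneous), against 98.8, and those of mouse 4 had 70.4 (lymph node) and 53.0 (pleura), against 73.3. All 9 lay below their own primary tumor, as 3.66% of all genes did. The log2 difference was −0.75 (SE 0.22, adjusted p = 0.216 from limma), and the mean ratio was −1.16 in mouse 1, −0.29 in mouse 2, −1.09 in mouse 3 and −0.26 in mouse 4. Without mouse 3 the difference was −0.62 and was not called. Of the unmatched primary tumors, that of mouse 7 had 39.7, below all but 1 of the metastases, and those of mice 5 and 6 had 66.8 and 74.3.

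The remaining nucleotide excision genes were not called. Xpa, which verifies the lesion, had a log2 difference of −0.25 (SE 0.13) and was lower in 7 of 9 metastases, and Ercc2, a helicase of the TFIIH complex, had −0.35 (SE 0.21). Ercc2 ran from 92.9 to 222 in the metastases, with a median of 162, and had 184, 257, 194 and 170 in the primary tumors of mice 1 to 4. Its low values were in the inguinal and liver metastases of mouse 1, at 92.9 and 104. Ercc3, the other TFIIH helicase, had 0.18, and Ercc1 and Ercc4, the subunits of the nuclease that cuts 5′ of the lesion, had 0.18 and 0.01. Ercc5, the nuclease that cuts on the 3′ side, had −0.14. Of 12 further genes of this pathway measured, 9 had a log2 difference above 0, with a median of 0.13 and none called, so the median below 0 holds for the 7 genes listed and not for the further ones.

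At the brightest probe sets, mismatch repair showed no call across mice but the widest difference between mice. Msh6, which recognizes single mismatched bases, differed by 0.34 on the log2 scale, within its SE of 0.37 (adjusted p = 0.795, limma). In mouse 1 it had 153 (body wall), 188 (inguinal) and 140 (liver) in the metastases, against 50.05 in the primary tumor, and in mouse 2 it had 156 in the liver metastasis, against 63.3. In mouse 3 it had 74.8 (heart), 62.7 (lymph node) and 70.9 (subcutaneous) in the metastases, against 121, and in mouse 4 it had 30.8 (lymph node) and 44.4 (pleura), against 55.2. The primary tumors of mice 5, 6 and 7 had 35.3, 62.9 and 34.1. Metastases of mice 1 and 2 were thus the 4 brightest of all 16 tumors, while the 5 metastases of mice 3 and 4 were below their own primary tumors. The mean log2 ratio was 1.67 in mouse 1, 1.30 in mouse 2, −0.80 in mouse 3 and −0.58 in mouse 4.

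A test of whether the difference varied between mice, chosen after the values were seen, gave an adjusted p of 0.195 for Msh6 (limma F-test over all probe sets), which does not pass the threshold of 0.05 that 0.0807% of all genes passed. Msh6 was the sole repair gene of the 34 at an unadjusted p under 0.05 in this test, beside 6.86% of all genes. Proliferation markers had median log2 ratios between 1.51 and 2.41 in the metastases of mice 1 and 2 and between 0.23 and 0.76 in those of mice 3 and 4. Hepatocyte markers divided the same mice, with medians between 0.82 and 3.05 in mice 1 and 2 and between −0.95 and 0.46 in mice 3 and 4. With so few mice the markers cannot be told apart, and their part in the Msh6 ratios was not tested. Among the other mismatch genes, Pms2, a subunit of the nicking complex MutL, had a log2 difference of 0.28 (SE 0.16). Exo1, the exonuclease that removes the wrong strand, had 0.02 (SE 0.16) at its brightest probe set. Its other probe set gave 0.47, at an unadjusted p under 0.05, with all 9 metastases higher. Msh3, which recognizes small loops of unpaired bases, had 0.03 (SE 0.35) and was dim, in 13 of 16 tumors below 24.3, the 25th percentile of all values. The pathway median was 0.16.

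Homologous recombination, the largest group with 9 measured genes, gave no call at the brightest probe sets. The log2 differences lay between −0.18 and 0.18 with a median of 0.10, 8 of 9 above 0, and the lowest adjusted p was 0.677 (Brca2, limma). Rad50, Mre11a and Nbn, the subunits of the complex that binds broken ends, had 0.16, 0.18 and 0.08. Brca1 and Brca2, which prepare broken ends for strand exchange, had 0.05 and 0.17, and Rad52 and Rad54l, which assist strand annealing and exchange, had 0.15 and 0.10. Fanca, of the Fanconi core complex, had 0.00 (SE 0.12). The gene with the largest difference was Blm, the helicase that dissolves recombination intermediates, at −0.18 (SE 0.24, adjusted p = 0.834 from limma). Its intensity ran from 88.9 to 211 in the metastases, with a median of 156, and was 149, 213, 157 and 150 in the primary tumors of mice 1 to 4. The 2 liver metastases (88.9 and 115) and the pleural one (114) were low, and the groups overlapped.

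Brca2 was above the own primary tumor in all 4 metastases of mice 1 and 2 and below it in both of mouse 4. It had 117, 137 and 116 in the body wall, inguinal and liver metastases of mouse 1, against 94.6 in the primary tumor, and 122 in the liver metastasis of mouse 2, against 81.7. In mouse 4 it had 95.0 (lymph node) and 83.7 (pleura), against 106. The variation between mice was not called (adjusted p = 0.811 from the limma F-test).

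End joining was measured with 3 genes. Xrcc4, the scaffold that holds the ligase at the ends, averaged 152 ± 13.1 in the metastases and 128 ± 17.1 in the matched primary tumors (SD, n = 9 and 4), and was higher in 8 of 9. Its values ran from 125 to 170 in the metastases, with a median of 155, and were 146, 116, 110 and 137 in the primary tumors of mice 1 to 4. The inguinal metastasis of mouse 1 (139) was below its primary tumor, and the primary tumors of mice 6 and 7 (166 and 157) were above the median of the metastases. The log2 difference was 0.25 (SE 0.10, adjusted p = 0.390 from limma), but the second Xrcc4 probe set, dim in 9 of 16 tumors, gave −0.23. Xrcc5 and Xrcc6, the Ku subunits that cap broken ends, had −0.15 (SE 0.17) and 0.16 (SE 0.10). The median of these 3 was 0.16. Of 5 further end joining genes measured, 1 was above 0 and 4 were below, with a median of −0.04 and none called.

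**Figure D3:**
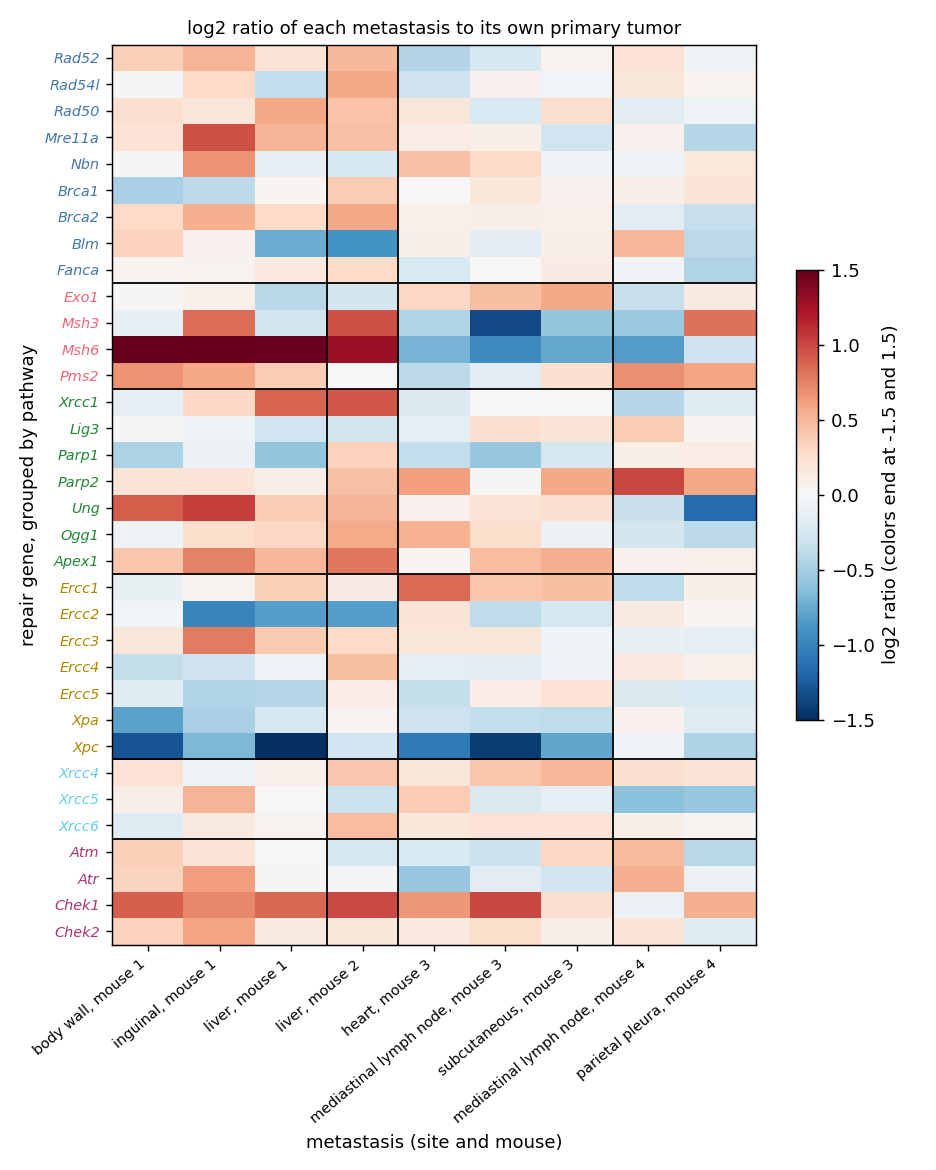
Log2 ratio of each of the 9 metastases (columns) to the primary tumor of the same mouse for the 34 repair genes (rows, by pathway), with red for higher and blue for lower in the metastasis and colors ending at −1.5 and 1.5. Msh6 is red in mice 1 and 2 and blue in mice 3 and 4, and Xpc is blue in all 9 columns.

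Set against its own primary tumor, the metastases gave medians over the 34 genes between −0.07 and 0.37, and medians over all genes between −0.08 and 0.07. The repair medians were 0.06, 0.24 and 0.07 in the body wall, inguinal and liver metastases of mouse 1, and 0.37 in the liver metastasis of mouse 2. They were 0.05, 0.04 and 0.07 in the heart, lymph node and subcutaneous metastases of mouse 3, and in mouse 4 they were 0.06 (lymph node) and −0.07 (pleura). The inguinal metastasis of mouse 1 and the liver metastasis of mouse 2 stood highest, each with 25 of 34 genes above its own primary tumor. The other 7 had between 16 and 20. The median over all genes was 0.07 in the inguinal metastasis, the highest of the 9, and 0.00 in the liver metastasis of mouse 2. The share of all genes above 0 is not given for single metastases, so these counts are not read as an excess. In the inguinal metastasis 14 repair genes exceeded a log2 ratio of 0.5, beside 22.3% of all genes, and in the liver metastasis of mouse 2 it was 9, beside 16.8%. Elsewhere it was between 1 and 5, beside 9.26% to 15.4% of all genes. Below a log2 ratio of −0.5 there were between 2 and 4 repair genes in each of the 9 metastases, beside 10.55% to 21.65% of all genes. The SD of the ratios over the repair genes was between 0.34 and 0.56 in the 9 metastases, and that over all genes was between 0.57 and 0.79. All genes include dim probe sets at the floor, while of the repair genes only Msh3 was dim in most tumors. These SDs are therefore not read as a steadier expression of repair genes. The hepatocyte markers had a median log2 ratio of 3.05 and 1.88 in the liver metastases of mice 1 and 2, 1.52 in the inguinal and 0.82 in the body wall metastasis of mouse 1, and the muscle markers 1.66 in the heart metastasis, 0.90 in the inguinal and 0.87 in the subcutaneous one. Their part in the repair ratios was not tested.

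By pathway, the spread between metastases was largest for mismatch repair, with medians between −0.55 (lymph node, mouse 3) and 0.71 (inguinal, mouse 1), which rest on 4 genes. Nucleotide excision repair was below 0 in 8 of 9 metastases, the exception being the liver metastasis of mouse 2 (0.11). Homologous recombination was above 0 in 8 of 9, the exception being the pleural metastasis (−0.07). End joining, with 3 genes, and base excision repair were above 0 in all 9, at values between 0.04 and 0.41 for end joining and between 0.02 and 0.51 for base excision repair. Damage checkpoint medians lay between −0.14 and 0.61. In the paired fit, 4 of 5 further end joining genes were below 0, and 10 of 13 further base excision genes were above 0. No share for sets of this size among all genes is given, so these counts of metastases are not read as pathway traits. The metastases of a mouse share 1 primary tumor, so a low or high primary value enters all of its ratios.

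**Figure D4:**
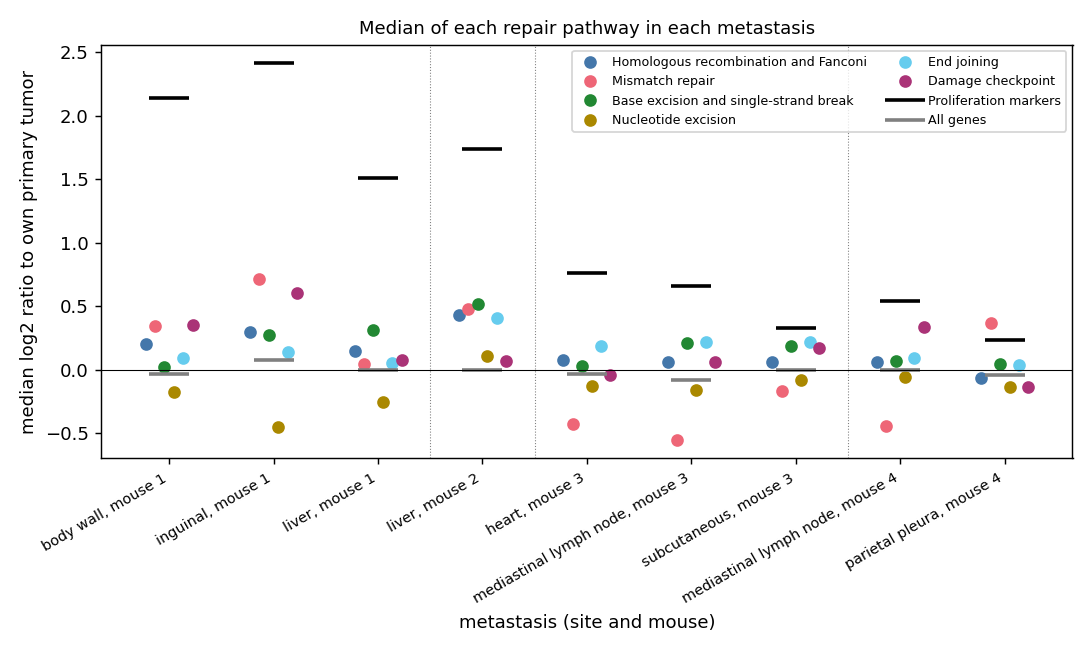
Median log2 ratio to the own primary tumor for each of 6 repair pathways (colored points) in each of 9 metastases, with the medians of the proliferation markers (black bars) and of all genes (grey bars). The proliferation medians lie between 0.23 and 2.41, the pathway medians between −0.55 and 0.71.

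Adding the primary tumors of mice 5, 6 and 7, with the mouse as a random block, changed the count little. At an unadjusted p under 0.05, 7 of the 34 genes were called, 6 higher and 1 lower in the metastases, beside 13% of all genes (6.12% higher and 6.89% lower), and none passed an adjusted p of 0.05, which 1.46% of all genes did. Chek1 (0.72), Apex1 (0.43), Parp2 (0.38) and Xpc (−0.52) were again among the called genes. Ercc3 (0.29), Xrcc6 (0.29) and Chek2 (0.26) entered, and Xrcc4 left (0.18). The adjusted p-values of these 4 from limma were between 0.326 and 0.480.

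Of 93 further genes of the same pathways, 65 were measured, 47 with a log2 difference above 0 and 17 below. At an unadjusted p under 0.05, 8 were higher in the metastases (12.3%, beside 4.37% of all genes) and 0 were lower (beside 7.11%). Of the 8, 5 were among the 21 further genes of homologous recombination (23.8% of these). An adjusted p under 0.05 was met by 0 of the 65 in the paired fit and by 1, Tipin, over 16 tumors. The median of the 65 was 0.10. Tipin, a subunit of the replication fork protection complex, was the sole one at an unadjusted p under 0.01, beside 4.16% of all genes. Its intensity in mouse 1 was 175 (body wall), 182 (inguinal) and 124 (liver), against 74.4 in the primary tumor, and in mouse 2 it was 170, against 49.7. In mouse 3 it was 150, 173 and 98.02 in the heart, lymph node and subcutaneous metastases, against 86.8, and in mouse 4 it was 99.5 (lymph node) and 86.9 (pleura), against 80.9. All 9 metastases were higher than their own primary tumor. The log2 difference was 0.87 (SE 0.24, adjusted p = 0.183 from limma), and over 16 tumors it was 1.09 (SE 0.22, adjusted p = 0.026 from limma). The others included, named after their values were seen, Mbd4 (0.97), a thymine glycosylase, and Topbp1 (0.65), an activator of ATR. Also among them were Rpa1 (0.57) and Rpa3 (0.51), subunits of the protein that coats single-stranded DNA. Usp1 (0.48), which removes ubiquitin from Fanconi proteins, and the helicase gene Recql4 (0.35) were further ones. Mbd4 was low in the primary tumors of mice 1 to 4, at 29.4, 26.6, 18.1 and 18.1. It averaged 46.0 in the metastases, and the primary tumors of mice 5, 6 and 7 had 59.8, 51.5 and 47.5.

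Where a gene had several probe sets, these did not always give the same difference. The second Chek1 probe set gave a log2 difference of 0.89 (adjusted p = 0.216 from limma), and the other two gave 0.12 and, dim in all 16 tumors, −0.38. Exo1 had 0.02 at its brightest probe set and 0.47 at the other (adjusted p = 0.183 from limma), where all 9 metastases were higher, at means of 90.9 in the metastases and 65.6 in the matched primary tumors. Rad50 had 0.16 at its brightest probe set and 0.49 at the other (adjusted p = 0.362 from limma), and both of these dimmer probe sets were at an unadjusted p under 0.05. The Brca1 probe sets gave 0.05, 0.25, 0.39 and 0.23, none of them called. Lig3 had −0.00 at its brightest probe set and 0.28 and −0.13 at others. Its remaining probe sets, dim in all 16 tumors, gave 0.49 and, at an unadjusted p under 0.05, −1.03 (adjusted p = 0.330 from limma). Parp1 had −0.13 at its brightest probe set and 0.16 and −0.36 at the others. Probe sets of 1 gene can measure different transcripts and differ in brightness. Their intensities were compared only to find the brightest or to call a probe set dim.

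**Figure D5:**
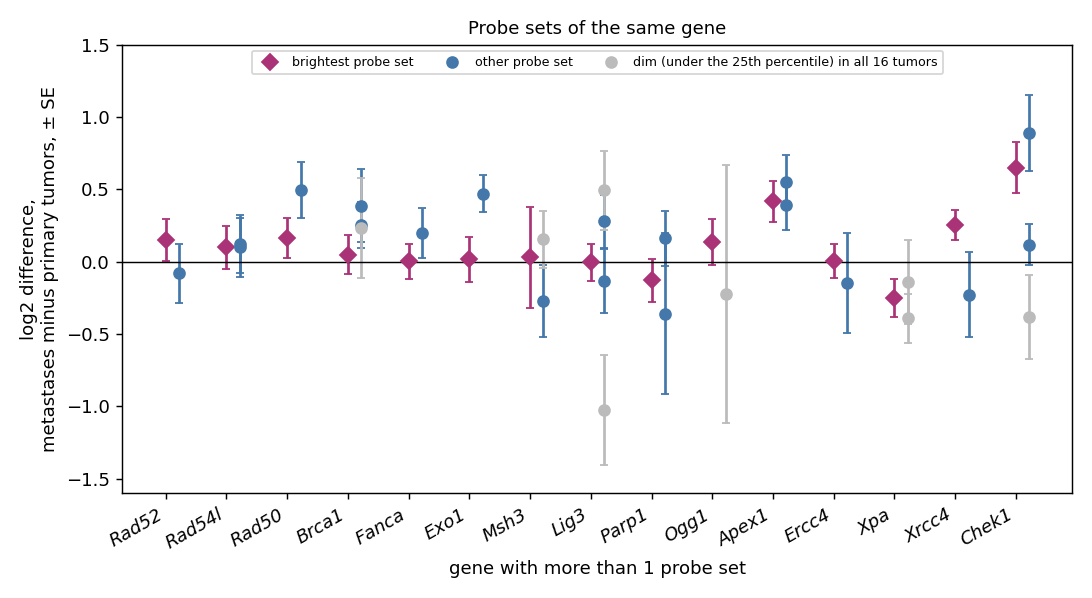
Log2 difference between 9 metastases and 4 matched primary tumors, with SE bars, for each probe set of the 15 repair genes that have more than 1. Diamonds mark the brightest probe set, circles the others and grey those dim in all 16 tumors. Exo1, Rad50, Xrcc4, Chek1, Lig3 and Parp1 are among the genes with probe sets that differ from the brightest one.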

How the data were processed

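The authors extracted RNA from dissected tumors, hybridized it to Affymetrix 430A 2.0 arrays, normalized the arrays to an invariant set and fitted dChip's model of perfect match minus mismatch signals. The deposited intensities are linear, and 3.71% were at or under 1. Here values under 1 were raised to 1 and log2 taken. Of 22690 probe sets, 64 controls were left out and 22626 tested, of which 20380 carry 1 symbol, 691 several and 1555 none in the platform annotation. No filter on low values was used. limma 3.58.1 (R 4.3.3) fitted metastases against primary tumors with the mouse as a fixed block (13 tumors, 8 residual degrees of freedom) or, for 16 tumors, a random block (consensus correlation 0.238), with Benjamini-Hochberg adjustment over all probe sets. Labels tie each metastasis to its mouse. Deviations of a metastasis correlated with those of its own primary tumor at −0.00 to 0.40, best of 4 for 6 of 9. The fit counts metastases of 1 mouse as separate replicates, and an exact sign test over 4 mice cannot go below p = 0.125 (two-sided). The script was tested on simulated data.

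The members, gene lists and tests were chosen with earlier results of these data known. Per-tumor values were given for members at an unadjusted p under 0.05 and, in pathways with none, for the member with the largest absolute difference; of the other repair genes, for those at p under 0.01. Ercc2, Brca2, Chek2, Ung and the second probe sets were singled out after their values were seen. Alternatives were other floors, dim probe sets left out, quantile normalization or centring, another choice of probe set, 1 mean ratio per mouse, no block, a variance trend with a robust prior, the methods' paired t-test, and each metastasis or mouse left out.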

Additional observations from a re-analysis of the deposited data

Results flagged for a closer look

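Ercc2 in the primary tumor of mouse 2 stood apart from the other primary tumors, with an intensity of 257 against 170 to 194 in the other 6. It was the single value so marked among 70 groups of values examined (1.43%), where chance alone marks about 1 in 20. The liver metastasis of mouse 2 had 145, which is also below the other 6 primary tumors. The log2 ratio of −0.83 for Ercc2 in this mouse thus rests in part on that primary value.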

How the results depend on the processing

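The count of repair genes at an unadjusted p under 0.05 (5) lay between 3 and 6 with any 1 metastasis or mouse left out. It was 3 without mouse 2, whose single metastasis is its liver one, when Apex1 and Xrcc4 were not called, and 4 with no replicate block, when Apex1 was not called. Over 16 tumors the count of 7 became 11 with the floor at the 10th percentile. The share of all genes called is not given for these alternatives, so their counts are not read as an excess of repair genes. With 1 mean ratio per mouse, the level of the animal, Parp2, Apex1, Xpc and Chek1 were called. The median of the end joining genes (0.16) was 0.0135 with the mean over the probe sets of a gene and −0.15 with the most variable probe set. Direction turned for Xrcc4 and Msh6. Xrcc4 had −0.23 with the most variable probe set, and Msh6 (0.34) had between −0.18 without mouse 1 and 0.79 without mouse 3. Of 200 repeats of the differences of Chek1, Parp2, Apex1, Xrcc4, Xpc, Blm, Msh6 and Tipin, 180 kept direction and side of the threshold and 18 lost the unadjusted threshold, 11 of them for Xrcc4 and 4 for Apex1. Parp2 lost it without mouse 4 (0.32), Xpc without mouse 3 (−0.62) and Chek1 with the mean over its probe sets (0.32).

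The count of all probe sets past an adjusted p of 0.05 (80) was 0 with 1 mean ratio per mouse, 43 with no replicate block, 216 with dim probe sets left out (78.3% kept), 224 with a variance trend and robust prior, 280 over 16 tumors and 884 with the methods' t-test, and lay between 2 (without mouse 1) and 72 with a metastasis or mouse left out. No repair gene is among the 80, and 2 of the 34, Chek1 and Xpc, pass with the methods' t-test. The cause of these shifts was not tested, except that leaving out tumors or probe sets changes what is tested. Arrays give no counting depth, and dim probe sets such as that of Msh3 carry little signal over background.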
